A study of Mus musculus with 4 samples.

Results

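The genes described here are 48 genes of the interferon response, chosen by name: the receptors for type I and type II interferon, the transcription factors behind them, and genes that interferons induce. All 48 were found on the array by gene name, with 69 probes, among 22563 named genes in all. Transcripts were measured on 4 arrays, 1 for each genotype, in sorted LSK cells of the bone marrow (lineage-negative, Sca-1 and c-Kit positive), where stem cells and early progenitors of the blood are found. The marrow was that of recipients rebuilt with E14.5 fetal liver, after lethal irradiation, from donors of the C57B6 strain. WT cells were collected 16 weeks after transplantation, TET2KD cells (with reduced TET2, which converts methylated cytosine to hydroxymethylcytosine) after 10 weeks, JAK2V617F cells (a transgene for the activating kinase mutation of myeloproliferative neoplasms) after 16 weeks, and double mutant cells, which carry both lesions, after 13 weeks. Each genotype stands for 5 mice. Whether the mice were pooled, how TET2 was knocked down, which promoter drives the transgene, and how many recipient cells remained are not given in the sources used here. With 1 array per genotype there is no replicate check, so "higher" and "lower" describe these arrays and carry no p-value, and time after transplantation cannot be told apart from genotype except between JAK2V617F and WT.

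Interferons are secreted proteins that alert cells to infection. Type I interferons bind the IFNAR1 and IFNAR2 receptor pair and interferon gamma binds IFNGR1 and IFNGR2; both use JAK kinases, which phosphorylate transcription factors of the STAT family. After type I interferon, a complex that contains STAT2 and IRF9 binds the interferon-stimulated response element (ISRE), and after interferon gamma, STAT dimers bind the gamma-activated site (GAS). In the blood system, interferon is known to push resting stem cells into division, and Sca-1, one of the proteins used to sort LSK cells, is itself induced by interferon.

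The promoter letters that these factors read are shown first because they are what many of the genes share by sequence. RefSeq promoter windows of assembly GRCm38, from 250 bases before to 50 bases after the transcription start, were listed for 37 of the 48 genes. The ISRE letters, TTTC, any 2 bases and TTTC again, searched on both strands (GAAA on the other), were found in a window of 16 of these 37 genes (43.2%), as for 3.99% of all 27025 listed genes, and in 3.44% of all 32851 windows. The GAS letters TTCNNNGAA, which read alike on both strands, were found for 13 of the 37 (35.1%), as for 9.55% of all listed genes, and in 8.30% of all windows. Both were found for 6 genes, and 1 of the 24 ISRE matches in these windows overlapped a GAS match. Stretches upstream of the start of 7 genes follow, on the gene's strand from 5′ to 3′ with the ISRE letters in capitals. They were chosen because their genes moved in different directions below or, for Ifit1, gave no signal above background.
Rsad2, chr12:26456548-26456587, minus strand: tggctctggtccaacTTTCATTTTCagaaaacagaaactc
Ifit3, chr19:34583358-34583431, plus strand: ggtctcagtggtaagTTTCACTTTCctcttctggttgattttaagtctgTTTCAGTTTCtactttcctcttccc
Ifit1, chr19:34640770-34640828, plus strand: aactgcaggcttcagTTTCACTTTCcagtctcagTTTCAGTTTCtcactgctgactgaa
Isg15, chr4:156200860-156200911, minus strand: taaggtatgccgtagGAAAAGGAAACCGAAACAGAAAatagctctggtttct
Oas3, chr5:120777710-120777749, minus strand: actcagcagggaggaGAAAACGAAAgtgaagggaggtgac
Gbp2, chr3:142620589-142620628, plus strand: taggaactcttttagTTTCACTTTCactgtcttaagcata
Gbp3, chr3:142559984-142560029, plus strand: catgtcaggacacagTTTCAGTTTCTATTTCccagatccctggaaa
A match is a description of these letters, not evidence that a factor was bound.

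Signals are given as scaled log2 values: log2 of the array's processed intensity minus log2 of that array's 75th percentile, so that 0 stands for the 75th percentile. Values of different probes are not compared as levels. Between 49.4% and 54.7% of spots were well above background per array, and repeated spots of 1 probe within an array had an SD of 0.151 to 0.159 on the log2 scale, which leaves out amplification, sorting and animals. If 1 of the arrays compared did not show a probe well above background, that probe's fold is a bound ("at least"), computed against the lowest signal well above background on that array or the probe's own signal if higher. Of the LSK markers, Kit and Ly6a, which encode the 2 sorted proteins c-Kit and Sca-1, were above background on all 4 arrays, and Slamf1 on none. Kit was at 4.19 in WT, 3.82 in TET2KD, 2.93 in JAK2V617F and 2.37 with both lesions. Ly6a was at 2.13, 3.42, 3.32 and 2.71 in the same order. In bulk samples, fewer cells of a type and less RNA per cell cannot be told apart.

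The interferon response genes did not move in 1 direction on any mutant array. In TET2KD against WT, 42 genes could be compared: 8 were at least 2-fold higher and 7 lower, where 15.9% and 17.5% of all 14315 compared genes were. That is 19.0% and 16.7% of the members. In JAK2V617F against WT, 6 of 43 were higher and 7 lower, with a background of 15.5% and 15.7%. In the double mutant against WT, 8 of 43 were higher and 7 lower, with a background of 15.3% and 16.6%. All of these shares are near the background of their comparison. The members' median log2 differences from WT were -0.15 in TET2KD, -0.30 in JAK2V617F and 0.01 with both lesions, beside -0.05, -0.01 and -0.01 over all compared genes.

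Between the mutants the members also moved both ways, but their lower shares lay further from the background. In the double mutant against JAK2V617F, TET2KD is the lesion that differs. There 7 of 42 members were at least 2-fold up and 3 down. That is 16.7% and 7.14%, with a background of 12.3% and 12.7%. The median was 0.24 beside -0.02 over all genes. In the double mutant against TET2KD, JAK2V617F is the lesion that differs. There 7 of 42 were up and 10 down. That is 16.7% and 23.8%, with a background of 15.8% and 15.5%. The median was -0.02 beside 0.02. These comparisons share arrays with those against WT. Across the 4 arrays, 25 of 43 members (58.1%) spanned at least 2-fold from lowest to highest, as did 59.1% of all 16086 genes.

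**Figure D1:**
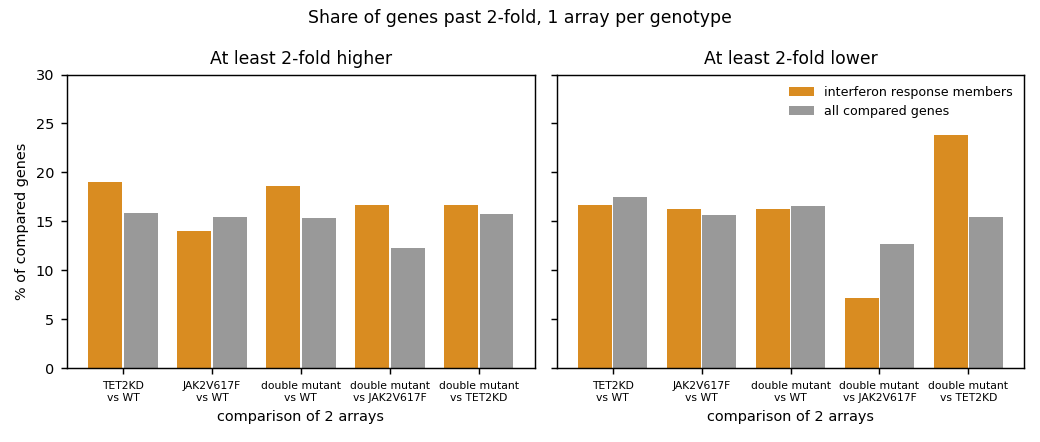
Percentage of compared genes at least 2-fold higher (left) or at least 2-fold lower (right) in each of 5 comparisons of 2 arrays, for the interferon response members (orange) and all compared genes (grey). Member bars stand from 7.14% to 23.8% and the grey bars from 12.3% to 17.5%. The widest gap between the members' higher and lower shares is 16.7% against 7.14%, in the double mutant against JAK2V617F.

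The 4 arrays form a 2 by 2 design. Each lesion could thus also be estimated from the 2 arrays that carry it against the 2 that do not, with limma moderating the spread across genes (1 residual degree of freedom). That degree of freedom holds any departure from additive effects together with noise, as no genotype was replicated. The SEs and p-values of this fit therefore do not measure spread between replicates. No gene of 16086 passed a Benjamini-Hochberg adjusted p of 0.05 for either effect, so 0% of genes and 0 of 43 members were called. At an unadjusted p under 0.05, limma had 4 of 43 members for TET2KD, where it had 4.49% of all genes. For JAK2V617F it had 7 of 43 members and 6.43% of all genes. The smallest adjusted p of a member was 0.94 for TET2KD and 0.717 for JAK2V617F.

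Members on which the 2 arrays of a lesion lay on the same side of the other 2 were counted too. Both TET2KD-bearing arrays were above both others for 8 of 43 members and below for 6, where 16.9% and 14.1% of all genes were. Both JAK2V617F-bearing arrays were above both others for 4 members and below for 9, where 16.2% and 23.1% of all genes were. With the brightest probe per gene 14 of 43 were below, with 23.7% of all genes. For TET2KD, 2 of 35 were below when only probes above background on every array compared were kept, with 16.6% of all genes.

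Several of the genes that respond most sharply to interferon gave no signal above background on any of the 4 arrays. These were Ifit1 and Ifit2, which encode proteins that block translation of viral RNA, Mx2, a dynamin-like antiviral GTPase, Usp18, the protease that removes ISG15 from proteins and restrains the type I receptor, and Ifi44. For these 5 genes no level or difference is given. The other 43 had at least 1 probe above background on at least 1 array.

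**Figure D2:**
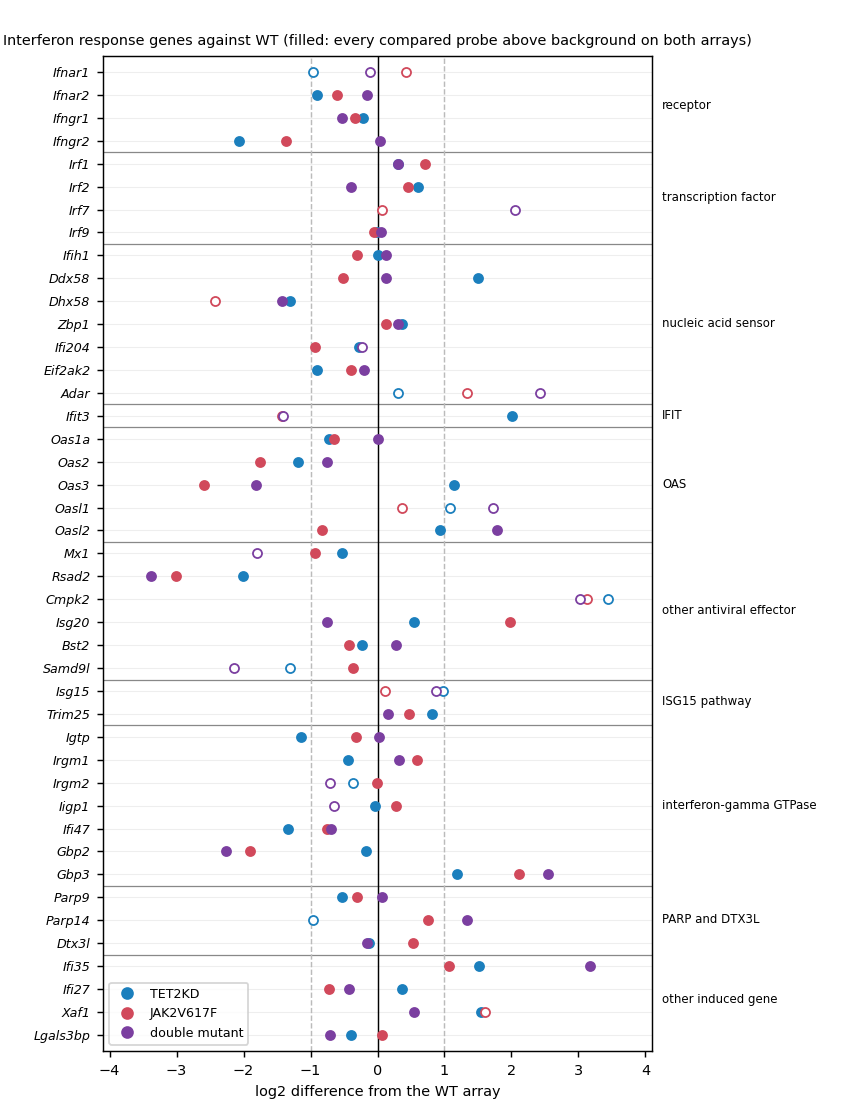
Log2 difference of each mutant array from the WT array for the 43 interferon response genes that could be compared, grouped by role. Points are TET2KD (blue), JAK2V617F (red) and the double mutant (purple), open where a probe was below background on 1 array, with dashed lines at 2-fold. Rsad2 lies far left and Cmpk2 far right in all 3 mutants, and Oas3 and Ifit3 have TET2KD on the right and the other mutants on the left.

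The receptor genes were lower than WT or less than 2-fold from it, apart from 1 Ifnar1 probe in JAK2V617F. Ifngr2, the signalling chain of the interferon gamma receptor, was at 3.26 in WT, 1.19 in TET2KD, 1.89 in JAK2V617F and 3.29 with both lesions. The single mutants were low and the double mutant stood with WT: Ifngr2 was 4.2-fold lower than WT in TET2KD and 2.59-fold lower in JAK2V617F, and 1.02-fold higher in the double mutant. It was therefore at least 2-fold lower when either lesion was added to WT and at least 2-fold higher when that lesion was added to the other. Such opposite differences were found for 2 of 43 members for TET2KD (Ifngr2 and Dhx58), with 4.09% of all genes, and for 2 for JAK2V617F (Ifngr2 and Isg20), with 4.05% of all genes. The partner chain Ifngr1, which binds the ligand, was at 1.74, 1.52, 1.41 and 1.21 in WT, TET2KD, JAK2V617F and the double mutant, all within 1.44-fold of WT. Ifnar2, a chain of the type I receptor, was at 3.84, 2.94, 3.24 and 3.69 in the same order and less than 2-fold from WT throughout.

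Ifnar1, the other type I chain, has 3 probes that did not move together. The probe at chromosome 16, 91503764 to 91505350 (mm9), covers 1587 bases of genome with 60 bases and so bridges an intron; its sequence is shown because it is the only Ifnar1 probe above background on all 4 arrays.
Ifnar1 probe: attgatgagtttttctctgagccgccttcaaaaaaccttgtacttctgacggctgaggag
This probe was at 0.98 in WT, 1.51 in TET2KD, 2.08 in JAK2V617F and 0.87 with both lesions, 2.14-fold higher than WT in JAK2V617F. The probe at 91506635 to 91506693 was at least 5.53-fold lower in TET2KD and within 2-fold of WT in the other mutants. The third probe was above background only in the arrays with JAK2V617F.

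Of the 4 transcription factors, Irf9, the DNA-binding subunit of the complex that reads the ISRE, differed least between arrays, at 1.25 in WT, 1.24 in TET2KD, 1.19 in JAK2V617F and 1.31 with both lesions. These values lie within the SD of repeated spots. Irf7, the factor that amplifies type I interferon production, behaved otherwise. Its probe at chromosome 7, 148450664 to 148451014 (mm9), covers 351 bases of genome with 60 bases, so it also bridges an intron.
Irf7 probe: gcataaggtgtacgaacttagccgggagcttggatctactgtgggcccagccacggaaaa
Irf7 was not well above background in WT (-3.39) or TET2KD (-4.1), stood just above it in JAK2V617F (-2.94) and was at -0.96 in the double mutant. The double mutant was thus the high array: at least 4.13-fold above WT, at least 3.54-fold above TET2KD and 3.95-fold above JAK2V617F.

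Irf2, which competes with Irf1 for the same sites, was at 0.21, 0.82, 0.67 and -0.18 in WT, TET2KD, JAK2V617F and the double mutant. It was within 2-fold of WT on each mutant array and 2-fold lower in the double mutant than in TET2KD. Irf1, an activator induced by interferon gamma, has 2 probes that disagreed in TET2KD. The probe at chromosome 11, 53590746 to 53590805 (mm9), was 2.41-fold lower than WT there, and the probe at 53591817 to 53591876 was 3.70-fold higher. In the other mutants both Irf1 probes were less than 2-fold higher than WT.

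Among the nucleic acid sensors, Dhx58 (LGP2), a regulator of RIG-I-like receptors, was at least 2-fold lower in all 3 mutants. It was at -0.79 in WT, -2.10 in TET2KD and -2.21 in the double mutant, and not above background in JAK2V617F (-4.24). Dhx58 was 2.48-fold lower than WT in TET2KD, at least 5.36-fold lower in JAK2V617F and 2.67-fold lower in the double mutant. WT was its high array. Ddx58 (RIG-I), a cytosolic RNA sensor, was 2.82-fold higher in TET2KD over 2 probes, at 5.5-fold and 1.45-fold. In JAK2V617F its probes went apart, 1.88-fold higher on 1 and 3.87-fold lower on the other.

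Ifih1 (MDA5), the sensor of long double-stranded RNA, averaged within 1.24-fold of WT on every mutant array, but its 2 probes lay on opposite sides of WT on each. In TET2KD 1 probe was 1.48-fold higher and the other 1.48-fold lower. The same probes were 2.17-fold lower and 1.41-fold higher in JAK2V617F, and 1.87-fold higher and 1.59-fold lower in the double mutant. Eif2ak2 (PKR), a kinase that halts translation on double-stranded RNA, was at 2.77, 1.85, 2.38 and 2.57 in WT, TET2KD, JAK2V617F and the double mutant, less than 2-fold from WT throughout. Zbp1, a sensor of left-handed nucleic acid, was read by 1 of its 2 probes, at 2.68, 3.05, 2.81 and 2.99. Ifi204, a DNA-binding protein of the p200 family, was lower than WT on its bright probe in each mutant, at most 2.21-fold, in the double mutant.

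Adar, which edits adenosine in double-stranded RNA, was highest in the double mutant on both probes. The probe at chromosome 3, 89555266 to 89555325 (mm9), was at -1.06 in WT, -2.19 in TET2KD, -0.96 in JAK2V617F and 0.31 with both lesions. That is 2.58-fold higher in the double mutant than in WT. The other probe, at 89557158 to 89557217, was below background in WT (-3.27) and at -1.27, -0.42 and 0.49 on the mutant arrays, at least 11.3-fold above WT in the double mutant. In TET2KD the Adar probes disagreed, 2.19-fold lower and at least 3.34-fold higher.

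Ifit3 and Oas3 were highest in TET2KD and below WT on both arrays with JAK2V617F. Ifit3, the partner that stabilises IFIT1, was at -1.78 in WT and 0.23 in TET2KD, and below background in JAK2V617F (-3.95) and the double mutant (-4.27). TET2KD was the high array, 4.03-fold above WT. The arrays with JAK2V617F were the low ones, at least 2.70-fold and 2.66-fold below WT. Oas3, an enzyme that makes the 2′-5′ oligoadenylate signal for RNA decay, was above background on all 4 arrays. It was at 1.25 in WT, 2.39 in TET2KD, -1.34 in JAK2V617F and -0.55 with both lesions. Oas3 was 2.20-fold above WT in TET2KD, 6.02-fold below it in JAK2V617F and 3.50-fold below it in the double mutant, which was 7.71-fold below TET2KD. For Oas3 the additive JAK2V617F estimate was -2.77 (SE 0.45; limma adjusted p = 0.717).

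The other OAS genes followed different orders. Oas2 was at -0.84 in WT, -2.03 in TET2KD, -2.59 in JAK2V617F and -1.60 with both lesions, lower than WT on every mutant array and by at least 2-fold in the single mutants. Oasl2, an OAS-like protein, was at -2.09, -1.17, -2.92 and -0.30 in the same order, with the double mutant 3.45-fold above WT and 6.12-fold above JAK2V617F. Oasl1, which restrains Irf7 translation, was below background in WT (-3.27) and at -1.93, -2.64 and -1.28 on the mutant arrays, at least 3.32-fold above WT in the double mutant. Both arrays with TET2KD were above both others for Oasl1 and Oasl2. Oas1a had 2 probes, of which 1 was 2.63-fold and 2.44-fold lower than WT in TET2KD and JAK2V617F and the other within 1.23-fold of WT on all mutant arrays. Oas1a has close paralogs, which these probes may also read.

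A contrast between neighbouring genes was seen on chromosome 12. Rsad2 (viperin), which makes a chain-terminating nucleotide that stops viral polymerases, was at 2.34 in WT, 0.34 in TET2KD, -0.66 in JAK2V617F and -1.05 with both lesions. WT stood highest on its probe at chromosome 12, 27127859 to 27127918 (mm9): Rsad2 was 4.02-fold, 8.04-fold and 10.5-fold lower in the 3 mutants. Cmpk2, a mitochondrial nucleotide kinase whose gene is the next protein-coding gene to Rsad2 in the RefSeq table and is known to be induced together with it, did the reverse. Its probe at 27162935 to 27162994 was below background in WT (-4.2) and at 0.46, 0.81 and -0.70 in TET2KD, JAK2V617F and the double mutant. Its probe at 27164119 to 27164178 was below background in WT (-3.79) and at 0.40, -0.56 and 0.75. WT was the low array on both: averaged over both, Cmpk2 exceeded WT by at least 10.9-fold in TET2KD, 8.78-fold in JAK2V617F and 8.18-fold in the double mutant.

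Across all genes, 6.69% were at least 2-fold lower and 4.15% at least 2-fold higher than WT in all 3 mutants. Of the 42 members compared in all 3, the lower ones were Dhx58 and Rsad2 (2, or 4.76%) and the higher ones Cmpk2, Gbp3 and Ifi35 (3, or 7.14%). These comparisons share the WT array.

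**Figure D3:**
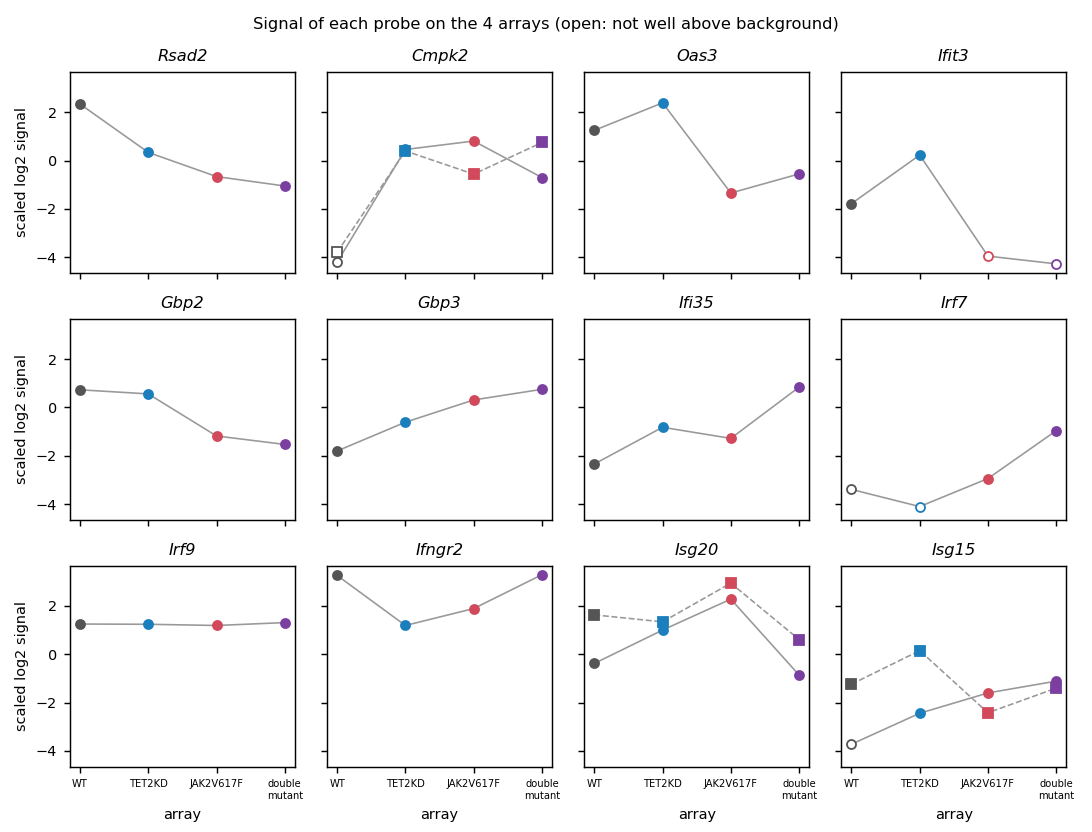
Scaled log2 signal on the WT, TET2KD, JAK2V617F and double mutant arrays for 12 interferon response genes, with 1 line per probe (circles for 1 probe, squares and a dashed line for another) and open symbols where the probe was not well above background. Rsad2 falls from WT (2.34) to the double mutant (-1.05) while both Cmpk2 probes leave background only in the mutants, and Irf9 is flat. Levels of different probes are not comparable.

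Isg20, an exonuclease that degrades viral RNA, was highest in JAK2V617F on both probes. The probe at chromosome 7, 86064960 to 86065019 (mm9), was at -0.38 in WT, 1.0 in TET2KD, 2.28 in JAK2V617F and -0.86 with both lesions. The probe at 86065136 to 86065195 was at 1.63, 1.34, 2.94 and 0.61. Averaged, Isg20 was 3.96-fold above WT in JAK2V617F and 6.66-fold lower in the double mutant than in JAK2V617F. Mx1, a nuclear antiviral GTPase known to be non-functional in most laboratory strains, was at -1.39, -1.92 and -2.32 in WT, TET2KD and JAK2V617F and below background in the double mutant (-4.32), at least 3.49-fold lower than WT. Bst2 (tetherin), which holds budding virions at the membrane, was at 1.11, 0.88, 0.68 and 1.38 and within 1.35-fold of WT. Samd9l, a growth-restraining antiviral factor, was lower than WT in every mutant on its brighter probe: 0.23 in WT, then -1.89, -1.99 and -3.09. Its other probe was 2.78-fold higher than WT in JAK2V617F and below background in TET2KD and the double mutant.

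In the ISG15 pathway, Isg15, the ubiquitin-like protein attached to targets during the response, gave no single picture. Its probe at chromosome 4, 155573649 to 155573708 (mm9), was at -1.24 in WT, 0.15 in TET2KD, -2.42 in JAK2V617F and -1.40 with both lesions. On that Isg15 probe TET2KD was high and JAK2V617F low, 2.62-fold above and 2.26-fold below WT. The other Isg15 probe, whose listed coordinates 155573533 to 155573552 cover only 20 of its 60 bases, was below background in WT (-3.72) and at -2.44, -1.60 and -1.11 on the mutant arrays. Trim25, a ubiquitin ligase that activates RIG-I, was 2.79-fold, 1.99-fold and 1.36-fold above WT on its probe at chromosome 11, 88881521 to 88881580. Its other probe, which holds a run of 31 alternating T and G bases, stood at 9.95 to 10.23 on all 4 arrays.

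The GTPases that interferon gamma induces include guanylate-binding proteins (GBPs) and immunity-related GTPases (IRGs), which attack the vacuoles of intracellular pathogens. Gbp2 and Gbp3, encoded in 1 cluster on chromosome 3, went opposite ways. Gbp2 was at 0.73 in WT, 0.56 in TET2KD, -1.18 in JAK2V617F and -1.53 with both lesions. The arrays without JAK2V617F were high and those with it low: Gbp2 was 3.75-fold below WT in JAK2V617F and 4.78-fold below in the double mutant. Gbp3 was at -1.80, -0.61, 0.31 and 0.75 in the same order, lowest in WT, and 2.28-fold, 4.34-fold and 5.87-fold above WT in the 3 mutants. The additive JAK2V617F estimates were -2.0 (SE 0.45) for Gbp2 and 1.74 (SE 0.48) for Gbp3, both at a limma adjusted p of 0.717.

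Of the IRG genes, Ifi47 was at 3.71 in WT and 2.37, 2.94 and 3.01 on the mutant arrays, 2.52-fold below WT in TET2KD. Igtp (Irgm3), a regulator of the other IRGs, was at 1.04, -0.10, 0.72 and 1.06, 2.20-fold below WT in TET2KD and within 1.25-fold of it in the others. For both, TET2KD was the low array. Irgm1, which regulates autophagy, had probes that disagreed in the double mutant (3.14-fold higher and 2.01-fold lower). Irgm2 was above background only in WT (-2.42) and JAK2V617F (-2.43). Iigp1 was between 3.84 and 4.41 on its bright probe on the 4 arrays.

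Parp9 and Dtx3l form a complex that modifies histones, and Parp14 is a related ADP-ribosyltransferase. Parp14 was at -1.83 in WT, below background in TET2KD (-3.20), -1.08 in JAK2V617F and -0.49 in cells with both lesions, 2.53-fold above WT and at least 4.91-fold above TET2KD. Dtx3l averaged within 1.45-fold of WT on each mutant array, but in TET2KD its 3 probes ran from 5.85-fold lower to 4.39-fold higher. Parp9 had 2 probes, of which 1 was 2.80-fold lower than WT in TET2KD and the other 1.34-fold higher.

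Of the remaining induced genes, Ifi35, a partner of NMI, was higher than WT on every mutant array. It was at -2.34 in WT, -0.82 in TET2KD, -1.28 in JAK2V617F and 0.84 with both lesions. The double mutant was the highest array, 9.04-fold above WT and 4.34-fold above JAK2V617F. Xaf1, an inhibitor of XIAP, was at 0.08, 1.63, 1.66 and 0.62 on its brighter probe, higher in both single mutants (2.94-fold and 2.98-fold) than in the double mutant (1.45-fold). The other Xaf1 probe was above background only in JAK2V617F (-1.38), at least 3.09-fold above WT. Ifi27 was at 5.14, 5.51, 4.41 and 4.71, and Lgals3bp, a secreted glycoprotein, averaged within 1.63-fold of WT on each mutant array.

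**Figure D4:**
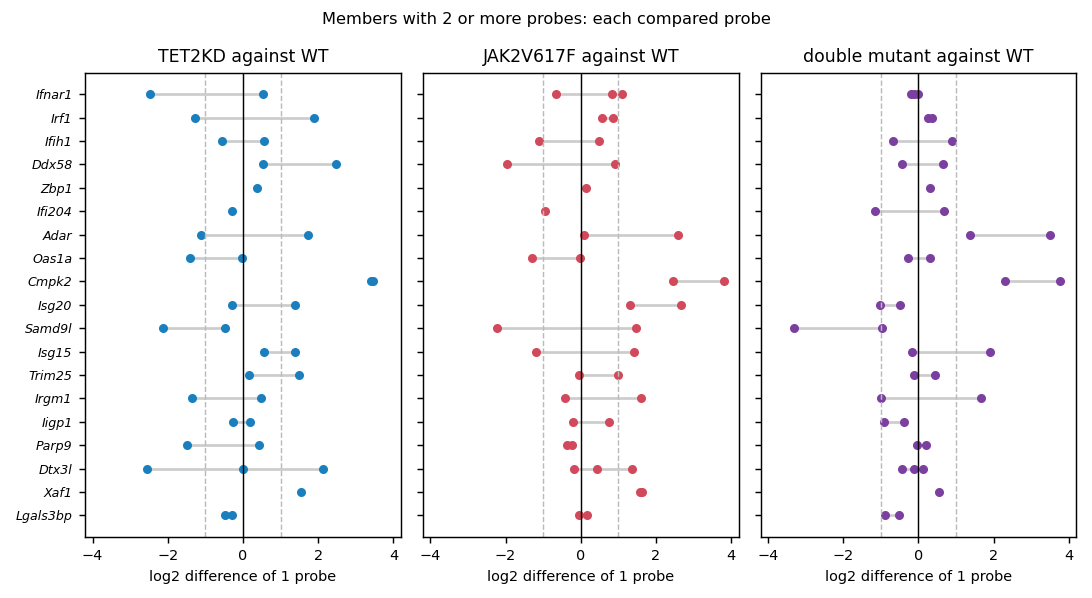
Log2 difference of each compared probe from WT in TET2KD (left), JAK2V617F (middle) and the double mutant (right) for the 19 members with at least 2 probes; grey bars join probes of 1 gene and dashed lines mark 2-fold. Cmpk2 probes sit together on the right in every panel, while Dtx3l and Irf1 in TET2KD and Isg15 and Samd9l in JAK2V617F lie past 2-fold on both sides of 0.

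Probes of 1 gene often disagreed, which limits what a single-probe gene shows. In TET2KD against WT, 7 of the 16 members with at least 2 compared probes had all probes on 1 side of WT (43.8%), as did 50.8% of all such genes. In JAK2V617F it was 7 of 17 (41.2%, against 52.5%) and in the double mutant 8 of 17 (47.1%, against 53.4%). The double mutant against JAK2V617F had more, 12 of 18 (66.7%, against 51.5%), and against TET2KD 8 of 16, against 54.2% of all such genes. Probes past 2-fold in both directions were seen for Adar, Dtx3l and Irf1 in TET2KD, Isg15 and Samd9l in JAK2V617F, and Irgm1 in the double mutant. These are 18.8%, 11.8% and 5.88% of such members, beside 8.19%, 7.43% and 7.12% of all genes with at least 2 compared probes. Between the mutants this held for Cmpk2 and Ifih1 against JAK2V617F (11.1%, beside 5.12%), and for Dtx3l, Irf1 and Isg15 against TET2KD (18.8%, beside 6.88%).

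The members were also counted by whether the ISRE letters were in the listed window. Of the 15 compared members with the letters, 4 were at least 2-fold higher than WT and 2 lower in TET2KD, 1 higher and 4 lower in JAK2V617F, and 1 higher and 4 lower in the double mutant. Of members listed without the letters, 4 of 18 were higher and 3 lower in TET2KD, 5 of 19 higher and 1 lower in JAK2V617F, and 6 higher and 1 lower in the double mutant. Over all compared genes 15.9% were higher and 17.5% lower in TET2KD, 15.5% and 15.7% in JAK2V617F, and 15.3% and 16.6% in the double mutant, and with 15 to 19 members a side these counts are a description. The medians with the letters were -0.17, -0.39 and 0.01, and without them 0.15, 0.37 and 0.05. Gbp2 and Gbp3 share the letters and stood on opposite sides, but their stretches were picked above for their genes' different directions. No test was made of the difference between members with and without the letters.

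Other genes of the pathway were read from a list of 66, of which 54, 53 and 57 could be compared with WT in TET2KD, JAK2V617F and the double mutant. At least 2-fold higher and lower were 7 and 6 in TET2KD, 9 and 14 in JAK2V617F, and 14 and 15 in the double mutant. In TET2KD that is 13.0% higher and 11.1% lower, beside 15.9% and 17.5% of all genes. In JAK2V617F it is 17.0% and 26.4%, beside 15.5% and 15.7%, and in the double mutant 24.6% and 26.3%, beside 15.3% and 16.6%. The shares past 2-fold were thus above those of all genes in both directions in the double mutant and mainly in the lower direction in JAK2V617F. The medians were -0.19, -0.37 and 0.01, beside -0.05, -0.01 and -0.01. Stat2, which acts in the type I pathway, was at 1.42, 1.13, 0.67 and -0.06 in WT, TET2KD, JAK2V617F and the double mutant, and 2.77-fold lower than WT in the double mutant. The receptor kinase genes also split: Tyk2 was below background in WT and at least 3.66-fold higher in each mutant, and Jak1 was 1.56-fold, 1.81-fold and 3.78-fold lower than WT.

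Upstream of interferon, Irf5 was 5.56-fold higher than WT in TET2KD, 5.67-fold lower in JAK2V617F and 3.71-fold lower in the double mutant. Ikbke, a kinase that activates IRF3 and IRF7, was 14.2-fold lower in JAK2V617F. Irf8, a myeloid fate factor, was 1.84-fold, 3.77-fold and 7.90-fold higher in TET2KD, JAK2V617F and the double mutant. Ifng, the gene of interferon gamma, was below background in WT and at least 7.69-fold higher in the double mutant, where it was 4.08-fold above JAK2V617F and 6.89-fold above TET2KD. Among induced genes outside the 48, Tgtp1 was 6.72-fold lower in TET2KD, Slfn2 at least 7.95-fold higher in JAK2V617F, Aim2 5.49-fold higher in the double mutant and Helz2 5.28-fold lower there. Lgals9 was 4.66-fold higher in TET2KD, and Trim14 and Irf3 were 3.38-fold and 2.60-fold lower. Helz2 was also 3.75-fold lower in JAK2V617F, where Sp100 averaged 6.11-fold higher over probes of which not all were above background. The adaptor Mavs was below background on the other 3 arrays and at least 5.58-fold above WT in the double mutant. Cxcl10 was 4.82-fold and 5.47-fold above WT in JAK2V617F and the double mutant. Between the mutants, Rtp4 was 7.20-fold higher and Sp100 7.09-fold lower in the double mutant than in JAK2V617F, with Slfn1 at least 5.32-fold higher and Slfn2 2.29-fold lower. Against TET2KD, the double mutant was 20.6-fold lower for Irf5, 6.22-fold lower for Ticam1, 5.17-fold lower for Phf11d and 9.48-fold higher for Tgtp1.

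Markers of other cells moved across the same arrays. For granulocyte and monocyte progenitors, 6 of 8 listed genes were at least 2-fold higher than WT in TET2KD. All 8 were in JAK2V617F and in the double mutant. Over all compared genes 15.9%, 15.5% and 15.3% were higher in TET2KD, JAK2V617F and the double mutant. Summed signals are given in multiples of the array's 75th percentile. For these 8 genes the sum came to 34.1 in WT, 80.2 in TET2KD, 170 in JAK2V617F and 186 with both lesions. The 11 monocyte, macrophage and dendritic markers summed to 38.5, 58.4, 23.5 and 57.9, with Itgax not above background on any array. Bright genes such as Cd74 weigh most in this sum. By gene, 1 of 8 compared was at least 2-fold higher than WT and 0 lower in TET2KD. In JAK2V617F 1 of 10 was higher and 1 lower, and in the double mutant 4 of 8 were higher and 1 lower. The medians were 0.37, -0.41 and 0.81. The 9 mature neutrophil markers summed to 65.6, 96.5, 21.6 and 66.9, a sum in which bright genes such as S100a9 weigh most. Counted by gene, 5 were at least 2-fold higher than WT and 1 lower in TET2KD, 0 and 5 in JAK2V617F, and 4 and 1 in the double mutant, with medians of 1.10, -1.61 and 0.93. The 4 higher in the double mutant were Ltf (4.18-fold), Chil3 (4.07-fold), Camp (2.87-fold) and Ngp (2.44-fold). The 7 plasmacytoid dendritic markers, which include the member Bst2, summed to 10.1, 15, 7.89 and 9.29. The 6 erythroid markers summed to 1.72, 22.4, 0.88 and 10.8, and the 5 megakaryocyte markers to 2.48, 8.57, 8.80 and 2.52. Hba-a1 weighs most in the erythroid sum and Pf4 in the megakaryocyte sum. By gene, 3 of 5 compared megakaryocyte markers were at least 2-fold higher than WT in TET2KD. In JAK2V617F 2 of 4 were higher, and in the double mutant 0 of 4, with 0 lower in each mutant. The 9 T and NK cell markers summed to 13.4, 9.07, 13.3 and 14.2, a sum in which Nkg7 weighs most. Of these markers 3 were above background in WT and in TET2KD, and 5 in JAK2V617F and in the double mutant. Cd3g, Cd3d and Cd8a were not above background on any array. Of the B lineage genes, Jchain, a plasma cell gene, was 6.74-fold higher than WT in TET2KD, 2.22-fold lower in JAK2V617F and 4.67-fold higher in the double mutant. Cd79b, of the B cell receptor, was 4.69-fold, 2.45-fold and 4.83-fold lower in the same order. Of the 10 LSK markers, 9 were above background on each array, and they summed to 101, 79.6, 62.5 and 44.7. The part of these cells in the differences above was not tested.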

How the data were processed

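The arrays were 1-colour Agilent mouse arrays. Trizol RNA went through NuGEN Ovation Pico amplification and Cy3 labelling, per the labels' protocols. The authors' scanner files hold intensity as Agilent Feature Extraction 10.7.3.1 wrote it, with background removed and spatial trends corrected in each array, and no scaling between arrays. Probe coordinates are on mm9, per the file headers. The deposited series matrix holds log2 values that differed from the scanner's log2 signal by 1 constant per array (0 of 55249 single-spot probes off by more than 0.01), with no centring per gene. Column medians were -2.64 (WT), -2.63 (TET2KD) and -2.60 (JAK2V617F and the double mutant). What the constant was chosen from is not given in the sources used here.

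Signals were taken to log2 and scaled by the 75th percentile of the 59305 spots that are not controls. Outlier spots were left out (162 to 199 per array), spots of 1 probe averaged, then probes of 1 gene. No spot was saturated. Probes were named by accession, symbol or unambiguous synonym through a RefSeq table of GRCm38, and 23942 of 55681 stayed unnamed. A probe entered a comparison when well above background on at least 1 of its 2 arrays. The members and lists were chosen with earlier results of these data known. Named genes follow a rule: members at least 2-fold from WT in all mutants, the largest differences per comparison, the receptors, and Irf7, Irf9, Isg15, Usp18 and Stat2, with others by role. Some genes of these lists are not reported here. Python 3.11.15, R 4.3.3 and limma 3.58.1 were used. Alternatives were normexp (offset 50), quantile, median and cyclic loess scaling, other rules on dim probes, the brightest probe, the series matrix and a 3-fold threshold. The steps were tested on simulated data.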

Additional observations from a re-analysis of the deposited data

Results flagged for a closer look

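Some members differed from their baseline in opposite directions on the 2 backgrounds, each by at least 2-fold, as did 4.09% of all 16086 genes for TET2KD and 4.05% for JAK2V617F; with 1 array per genotype the differences between backgrounds were not tested. Ifngr2 differed by -2.07 in TET2KD against WT and by 1.41 in the double mutant against JAK2V617F, a gap of -3.48 on the log2 scale. The same 4 values give -1.37 for JAK2V617F against WT and 2.10 against TET2KD. Dhx58 differed by -1.31 and 1.0 for TET2KD, a gap of -2.31, with JAK2V617F below background. Isg20 differed by 1.98 for JAK2V617F on the WT background and by -1.30 on the TET2KD background, a gap of 3.28, with both probes on the same side each time.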

How the results depend on the processing

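Of 146 recomputed counts and medians, 127 stayed within 1.5 times the reported count or within the allowed range of the median, and 19 moved. A change of sign was not scored for these. The double mutant median against WT went from 0.01 to -0.15 or -0.16 under settings given below. Of 1009 recomputed single-member differences, 854 stayed within the SD of repeated spots, 155 moved and no called one changed sign. Normexp background correction, with an offset of 50 added to dim signals, lowered most counts: members at least 2-fold higher and lower became 3 and 3 in TET2KD, 3 and 4 in JAK2V617F, 4 and 3 in the double mutant, 3 and 1 in the double mutant against JAK2V617F, and 3 and 3 against TET2KD, and the JAK2V617F median became -0.07. The counts over all genes fell with it, from 2277 and 2502 to 796 and 1082 in TET2KD, from 2309 and 2342 to 886 and 910 in JAK2V617F, from 2273 and 2454 to 806 and 978 in the double mutant, from 1838 and 1909 to 480 and 618 against JAK2V617F, and from 2297 and 2263 to 891 and 807 against TET2KD. At 3-fold, TET2KD had 2 higher and 2 lower, the double mutant 3 higher than JAK2V617F and 3 lower than TET2KD. The share of all genes past 3-fold was not counted, so these counts have no background beside them. With only probes above background on both arrays, 5 of 37 members were higher in the double mutant, with 11.8% of all genes, and its median was -0.15. With the brightest probe per gene that median was -0.16. Under that setting 6 of 42 members were lower in the double mutant than in JAK2V617F, with 13.8% of all genes. The limma fit called 0 members for either effect in each of 8 alternatives, of 35 members with only probes above background, 48 with no filter and 43 in the others. Depth here is signal over background: folds of dim probes rest on it. No paired analysis was possible because each genotype has 1 array, so no replicate could be left out either.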
